A study of Mus musculus with 3 samples.

Results

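Heat shock protein genes were followed in single macrophages sorted from mouse hearts. The members are 10 genes chosen by symbol: the inducible Hspa1a, Hspa1b, Hspb1, Hsph1, Dnajb1 and Hsp90aa1, and the constitutive Hsp90ab1, Hspa8, Hspd1 and Hspe1. All 10 were found among the 30406 genes shared by the 3 libraries. The mice were wild type and 32 to 34 weeks old, and CD45+F4/80+CD11b+ cells were sorted from collagenase-digested hearts (30 minutes at 37 °C) and profiled by droplet sequencing of transcript 3′ ends. The 3 libraries come from 3 feeding groups, of 1 library each: control (CD), high fat (HFD) and Western diet (WD). The sources used here do not give how many mice went into a library, or the make-up and length of the feeding. With 1 library per diet no difference between diets could be tested, so those comparisons describe 3 libraries, with intervals that cover counting error only.

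Heat shock proteins are chaperones, which bind unfolded or newly made proteins and help them reach or regain their shape. The transcription factor HSF1 switches on the inducible genes when cells are heated or otherwise stressed, by binding heat shock elements, which are alternating GAA and TTC blocks. Constitutive members work in unstressed cells. Heat shock and immediate early genes are also known to be switched on while cells are released from tissue with enzymes at body temperature. In the heart, resident macrophages are commonly marked by Lyve1, a hyaluronan receptor, and monocyte-derived macrophages by Ccr2, a chemokine receptor.

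The stretches below show the heat shock elements found near the start sites of the members, since they are the letters through which HSF1 acts. A dimer was searched as GAANNTTC or TTCNNGAA, and a trimer as GAA, TTC and GAA in turn, each 2 bases apart, on both strands, a trimer overlapping the dimers within it, in RefSeq windows of 300 bases (250 before to 50 after a start site) on GRCm38.p6. Either dimer occurs in 15.1% of 32851 such windows and the trimer in 0.603%. Capitals mark the letters of the blocks.
Hspa1a, chr17:34972233-34972272, minus strand: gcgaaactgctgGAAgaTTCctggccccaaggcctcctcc
Hspa1b, chr17:34959315-34959354, minus strand: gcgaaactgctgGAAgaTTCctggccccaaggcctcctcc
Hspb1, chr5:135887790-135887841, plus strand: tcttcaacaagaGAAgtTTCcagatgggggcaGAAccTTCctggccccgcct
Hsph1, chr5:149636287-149636306, minus strand: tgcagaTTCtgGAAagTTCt
Hspd1 and Hspe1, chr1:55088053-55088082, minus strand: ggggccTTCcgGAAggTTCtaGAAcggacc
Hspa1a and Hspa1b carry the same 40 bases, with 1 dimer each, and their windows differ at 4 of 300 bases. Hspb1 has 2 dimers, and Hsph1 has 3 dimers with 1 trimer in its window. Hspd1 and Hspe1 lie head to head and share 1 stretch of 3 dimers and 2 overlapping trimers, so the densest array found belongs to members classed here as constitutive. That stretch lies within the annotated Hspd1 gene, and a second Hspd1 window holds no match. The 2 Dnajb1 windows hold none either, which says only that these letters are absent there. Hsp90aa1, Hsp90ab1 and Hspa8 had no entry.

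Hspa1a and Hspa1b, the stress-induced cytosolic HSP70 genes, are single-exon neighbours on chromosome 17 (34969190 to 34972156 and 34956436 to 34959238 on GRCm38), 9952 bases apart. Of the 50-base words of the Hspa1a transcript, 58.8% also occur in Hspa1b, and none of its last 350 words do. Counts of these 2 genes are therefore uncertain wherever reads fell outside their 3′ ends.

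Cells were barcodes with at least 1000 UMIs (unique molecular identifiers, counts of captured transcripts), at least 200 genes and at most 10% mitochondrial UMIs. C1q cells had 0.3% or more of their UMIs in C1qa, C1qb and C1qc, complement genes typical of tissue macrophages. They numbered 2293 of 2679 cells in CD, 2002 of 2717 in HFD and 3717 of 4775 in WD, with medians of 4319, 2953.5 and 12242 UMIs. The 8 macrophage markers other than the C1q genes that chose the cells were found in the C1q cells of every library, summing to 2982, 3084 and 4880 CPM (UMIs scaled to an equal total in each set of cells). The WD library stands apart. Per the file headers it was written by software version 7.2.0 against 3.0.1 for the others, and its ratio to CD moved with gene structure, from a median log2 of -0.98 for genes with an intron but under 1000 intron bases to 0.88 for genes with 10000 or more. Diet, library and processing cannot be told apart for WD. The mitochondrial limit removed 6.33% of CD, 11.9% of HFD and 26.1% of WD barcodes. CD and HFD shared 15 of the kept barcodes, CD and WD 1, and HFD and WD 0.

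In C1q cells the HFD library had less of the inducible HSP70 genes and of Dnajb1 than the CD library, while the other inducible members did not follow. Hspa1a was 4.03-fold lower (95% interval 3.77 to 4.31), Hspa1b 4.68-fold lower and Dnajb1, the HSP40 partner that feeds substrates to HSP70, 1.74-fold lower. Hsph1, an HSP110 that recycles HSP70, was 1.89-fold higher instead. All 4 constitutive members were slightly higher, by 1.16- to 1.28-fold.

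Hspa1a measured 614, 152 and 975 CPM in CD, HFD and WD. Its counting intervals do not overlap between any of the libraries, and HFD is by far the lowest. Hspa1b measured 49.7, 10.6 and 409 CPM, again lowest in HFD. Dnajb1 was at 107, 61.5 and 111 CPM, so that CD and WD lie within counting error of each other and HFD below. Hsph1 was at 17.7, 33.5 and 104 CPM in the same order, lowest in CD. Hspb1, the small heat shock protein HSP27 that holds unfolded proteins and steadies actin, was at 25.5, 38.2 and 159 CPM, also lowest in CD. Hsp90aa1, the stress-responsive cytosolic HSP90, was at 360, 321 and 786 CPM. CD and HFD differ there by a ratio of 0.892 (0.846 to 0.941), beyond counting error but small.

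The constitutive members varied less. Hspa8, the everyday cytosolic HSP70 (HSC70), was at 1843, 2364 and 1916 CPM in CD, HFD and WD. Hsp90ab1, the constitutive HSP90 that matures kinases and receptors, was at 908, 1144 and 1384 CPM. Hspd1, the mitochondrial chaperonin HSP60, was at 89.7, 104 and 108 CPM, and Hspe1, its lid HSP10, at 195, 229 and 193 CPM. Intervals of CD and WD overlap for Hspe1, and those of HFD and WD for Hspd1.

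**Figure D1:**
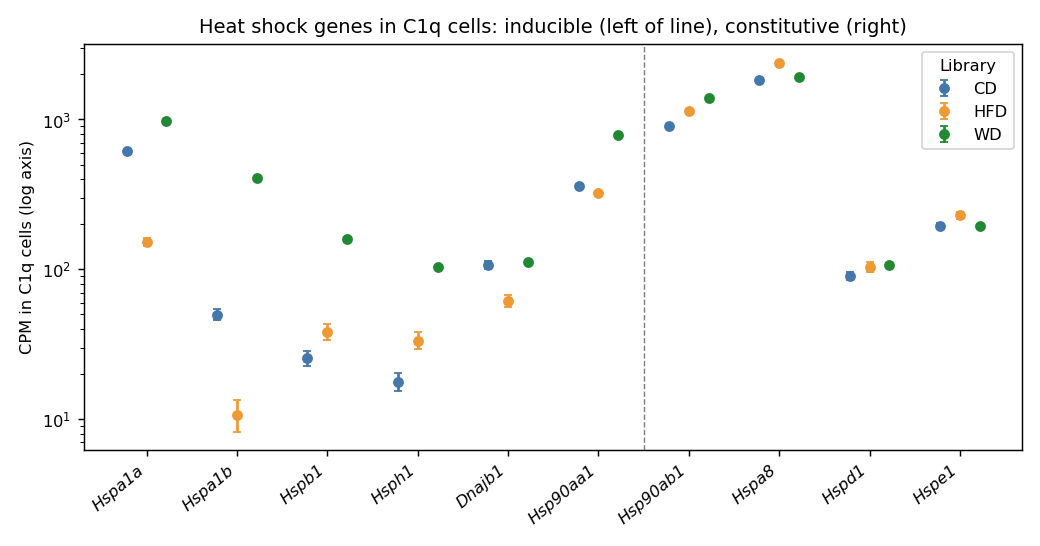
Level of each member in C1q cells as CPM on a log axis, with 1 point per library and 95% Poisson intervals, inducible members to the left of the dashed line. HFD is lowest for Hspa1a (152 CPM), Hspa1b (10.6 CPM) and Dnajb1 (61.5 CPM), CD is lowest for Hspb1 and Hsph1, and the constitutive members lie close together.

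Counting a gene as higher or lower past 1.5-fold, HFD against CD gave 1 member higher and 3 lower, among all 8541 genes with at least 100 UMIs of which 3.22% were higher and 5.00% lower. The 4 calls are Hsph1, and Hspa1a, Hspa1b and Dnajb1. The median log2 ratio was -0.48 over the inducible and 0.28 over the constitutive members, against -0.04 over all genes tested. The inducible sum was 1174 CPM in CD and 618 in HFD, a log2 ratio of -0.93. It hides the split: without Hsp90aa1 the log2 ratio was -1.46. Hspa1a was the largest part of the sum in CD, at 614 CPM, and stood at 152 in HFD. Inducible members made up 27.9% of the members' UMIs in CD and 13.9% in HFD, while all members together took 0.421% and 0.446% of all UMIs.

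The lower Hspa1a level was found in each C1q subset. In cells with Lyve1 and no Ccr2 it was 575 CPM in CD and 150 in HFD, and in cells with Ccr2 and no Lyve1 734 and 99.8. The log2 ratios, -1.94 and -2.88, have intervals that do not overlap; whether diet acts differently in these subsets was not tested. In cells below the C1q threshold, the ratio of Hspa1a was smaller, at 352 CPM in CD and 195 in HFD (log2 -0.85). Near-empty barcodes of 10 to 100 UMIs, which carry mostly free RNA, held Hspa1a at 231 CPM in CD and 59.8 in HFD, so the libraries differed in the same direction outside cells. The part of free RNA in the difference was not tested.

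**Figure D2:**
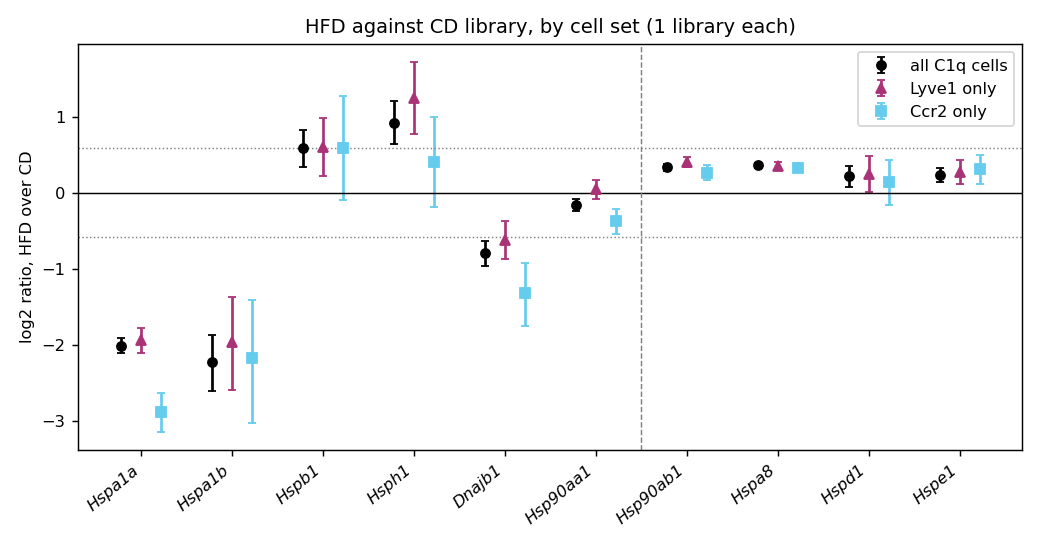
log2 ratio of HFD over CD for each member, with 95% counting intervals, in all C1q cells and in those with Lyve1 only or Ccr2 only. Dotted lines mark 1.5-fold. Hspa1a, Hspa1b and Dnajb1 lie below 0 in every set, and Hsph1, Hspb1 and the constitutive members above it, with intervals of Hspb1, Hsph1 and Hspd1 in Ccr2 cells that reach 0.

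Fewer cells of the HFD library held Hspa1a. After each cell was thinned to 1000 UMIs, 33.2% of CD C1q cells had an Hspa1a UMI (31.3 to 35.2, exact Clopper-Pearson), 11.2% of HFD and 41.8% of WD cells. Without thinning the shares were 59.8%, 23.7% and 83.2%. Hspa8 was found in 78.9%, 86.9% and 79.0% of thinned cells. Counts of Hspa1a were also unevenly spread, with a variance to mean ratio of 2.81 in thinned CD cells, 1.57 in HFD and 3.21 in WD. Hspe1 had 1.01, 1.08 and 1.23, spread nearly as independent draws would be in CD and HFD but less so in WD. Hsp90ab1, with thinned means of 0.87, 1.17 and 1.29 UMIs per cell, had 1.13, 1.27 and 1.28. The thinned means of Hspa1a were 0.65, 0.15 and 0.98 UMIs per cell, so its variance to mean ratios come from unlike levels. In CD the 10% of cells with most Hspa1a held 57.4% of its UMIs. For the rarer Hspe1 that share was 63.9%, so the share alone does not show an uneven spread.

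Other genes of the heat shock pathway showed little of this pattern in HFD. None of the 3 genes for the factors themselves and their inhibitor (Hsf1, Hsf2 and Hsbp1) passed 1.5-fold, with Hsf1 at 16.8 CPM in CD and 15.8 in HFD. Of 14 other HSF1 targets tested, 3 were higher and 1 lower, beside 3.22% and 5.00% of all 8541 genes tested. Serpinh1, a collagen chaperone, stood at 5.79 CPM in CD and 16.7 in HFD, Cryab, a small heat shock protein of muscle, at 11.7 and 19.3, and Hspa4l, an HSP110 relative, was 1.61-fold higher. Ier5, a stress gene that feeds back on HSF1, was 2.19-fold lower. Among HSP70 co-chaperones 1 of 12 was higher (Dnajb2, 1.56-fold), and among HSP90 co-chaperones 1 of 8 (Fkbp5, a glucocorticoid-induced immunophilin, 1.86-fold). None of 7 CCT chaperonin subunits, 9 mitochondrial chaperones and proteases or 14 endoplasmic reticulum chaperones passed 1.5-fold.

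Most immediate early and dissociation genes were lower in HFD, as Hspa1a was. Of 18 tested, 16 were lower in HFD and 0 higher, beside 5.00% and 3.22% of all 8541 genes tested. The median log2 ratio was -1.53 against -0.04 for all genes. Nr4a1, an orphan nuclear receptor, was 7.90-fold lower, Ier3 4.97-fold, Fosb 4.53-fold and Atf3, a stress-induced transcription factor, 4.24-fold. Their summed level was 10930, 5096 and 31183 CPM in CD, HFD and WD, the order also seen for Hspa1a. In C1q cells 8 of 10 marker sums of other cell types differed past 1.5-fold between CD and HFD. Erythroid genes (570 and 8.79 CPM), neutrophil genes (849 and 192), classical monocyte genes (399 and 217) and T or NK genes (1.49 and 0.303) were lower in HFD. Cardiomyocyte (226 and 490), endothelial (260 and 429), mural (15.0 and 30.0) and conventional dendritic genes (47.1 and 72.4) were higher. Their part in the result was not tested.

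In C1q cells the WD library had the most of every inducible member, with Dnajb1 within counting error of CD. Against CD 6 members were past 1.5-fold higher and 0 lower, and against HFD 6 higher and 0 lower. These counts say little about the members, because 44.5% of 11800 genes were higher and 28.3% lower against CD, and 45.0% and 26.7% of 11711 against HFD. The 6 against CD were Hspa1a (1.59-fold), Hspa1b (8.23-fold), Hspb1 (6.24-fold), Hsph1 (5.86-fold), Hsp90aa1 (2.18-fold) and the constitutive Hsp90ab1 (1.52-fold). Against HFD they were all 6 inducible members, from 1.81-fold for Dnajb1 to 38.6-fold for Hspa1b, and no constitutive member. In Ccr2 cells alone the order of Hspa1a was another, with 563 CPM in WD and 734 in CD. The inducible sum over all C1q cells was 2545 CPM, a log2 ratio of 1.12 to CD and 2.04 to HFD.

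The 10 members are therefore set beside genes of like intron length in WD against CD. Genes without introns had a median log2 ratio to CD of -0.14, and the intronless Hspa1a and Hspa1b were at 0.67 and 3.04. Genes with an intron but under 1000 intron bases had -0.98, and Hspb1 (614 bases) was at 2.64. Genes with 1000 to under 10000 bases had -0.71, and Hsp90aa1 (8193) was at 1.13, Hsp90ab1 (2498) at 0.61 and Dnajb1 (1257) at 0.06. Of the same class, Hspa8 (4803) was at 0.06, Hspd1 (7767) at 0.26 and Hspe1 (1702) at -0.01. Hsph1, with 14824 bases, was at 2.55 where its class had 0.88. All 10 members, constitutive ones included, lay above the median of their class.

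Within the HSP70 pair the libraries differed in composition. Hspa1b made up 7.49% of the pair's UMIs in CD C1q cells (6.91 to 8.11), 6.51% in HFD (5.11 to 8.15) and 29.6% in WD (29.2 to 29.9). In the WD library it was between 28.1% and 33.2% in every cell set. That library also differed in software version and gene list, and the part of processing in the Hspa1b share was not tested. Hsp90aa1 was 28.4% (CD), 21.9% (HFD) and 36.2% (WD) of the UMIs of the 2 HSP90 genes.

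**Figure D3:**
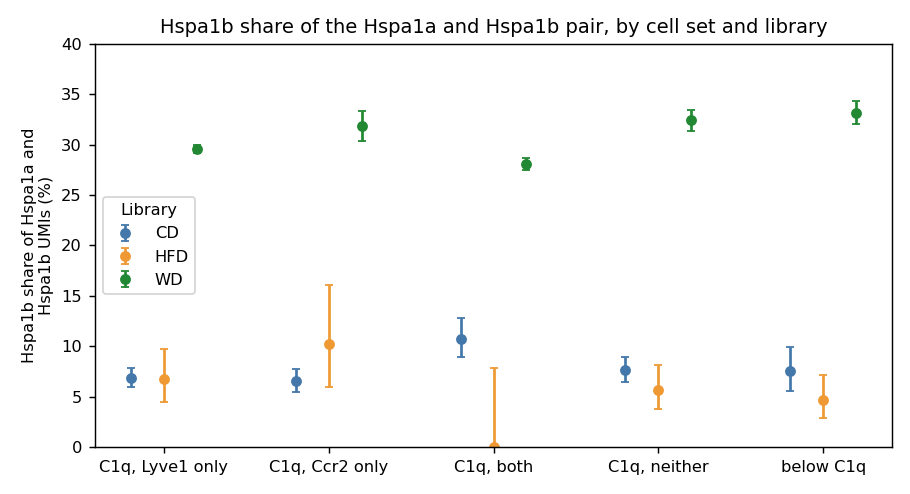
Hspa1b as a percent of the UMIs of Hspa1a and Hspa1b, by cell set and library, with exact 95% intervals. WD lies between 28.1% and 33.2% in all 5 sets. CD and HFD stay under 11%, and the HFD cells with both Lyve1 and Ccr2 had 0 Hspa1b of 45 UMIs, which allows up to 7.87%.

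C1q cells with Lyve1 and no Ccr2 were then compared with those with Ccr2 and no Lyve1 in the same library. There were 932 and 440 such cells in CD, 697 and 346 in HFD, and 2211 and 293 in WD. Hspb1 was higher in Lyve1 cells and Hspe1 lower, in all 3 libraries. No other member passed the test, edgeR's quasi-likelihood test with library as a block and Benjamini-Hochberg adjustment over all genes.

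Hspb1 stood at 28.7 CPM in Lyve1 cells and 17.5 in Ccr2 cells of CD, 43.5 and 26.4 in HFD, and 199 and 27.7 in WD. The Lyve1 value is the higher in each library and the gap is widest in WD, where it is 7.17-fold. edgeR gave a log2 difference of 1.80 with an adjusted p of 0.0018, higher in 3 of 3 libraries. The value leans on WD: without that library it was 0.59, with an adjusted p of 0.021. Endothelial markers, all 10 of which were found in the Lyve1 cells, summed to 121, 388 and 24.1 CPM in Lyve1 cells and 315, 423 and 43.4 in Ccr2 cells, lower in Lyve1 cells each time. Erythroid sums were higher in Lyve1 cells (729 against 32.9, 7.66 against 6.41 and 133 against 14.9 CPM), as were neutrophil sums (767 against 744, 184 against 47.0 and 1236 against 664). Counting intervals of Lyve1 and Ccr2 cells overlapped for endothelial and erythroid sums in HFD and for neutrophil sums in CD. Cardiomyocyte sums were 215 against 257, 419 against 366 and 280 against 187. In cells without a cardiomyocyte UMI, a split chosen after the data were seen, Hspb1 was at 26.3 CPM in Lyve1 and 5.97 in Ccr2 cells of CD, 46.8 and 20.7 in HFD, and 187 and 30.8 in WD. Before this split the Ccr2 cells held 41 Hspb1 UMIs in CD and 37 in HFD, so their values after it rest on fewer. The part of RNA from these other cell types in the Hspb1 difference was not tested.

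Hspe1 stood at 178 CPM in Lyve1 cells and 222 in Ccr2 cells of CD, 216 and 274 in HFD, and 180 and 226 in WD. The gap is nearly the same in each library, at log2 ratios of -0.32, -0.35 and -0.32. edgeR gave -0.41 with an adjusted p of 0.0082, lower in 3 of 3 libraries, though without HFD the adjusted p was 0.086. Its partner Hspd1, which shares the promoter stretch shown above, had a log2 difference of -0.24 (edgeR, adjusted p 0.15) and was not called. With C1q at 1% (-0.46, adjusted p 0.021) and without WD (-0.39, 0.011) edgeR did call Hspd1. The 2 members called in the main comparison, 1 in each direction, are 2 of 10, where 11.7% of 10042 genes were higher and 11.5% lower in Lyve1 cells.

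The remaining inducible members differed between libraries in direction. Hspa1a was at 575 CPM in Lyve1 and 734 in Ccr2 cells of CD, 150 and 99.8 in HFD, and 1097 and 563 in WD. Ccr2 cells are the higher in CD and Lyve1 cells in HFD and WD. The edgeR log2 difference was 0.31 with an adjusted p of 0.33. Hsph1 had log2 ratios of -0.69, 0.15 and 0.86 in CD, HFD and WD, and Hsp90aa1 -0.31, 0.11 and 0.57. Dnajb1 was 0.00, 0.70 and 1.00, with an edgeR log2 difference of 0.49 and an adjusted p of 0.055. That p lies near the threshold: it was 0.017 without TMM factors, 0.00023 without the count filter, 0.040 at a minimum of 2000 UMIs or a mitochondrial limit of 5%, 0.043 without the 5% of cells with most UMIs and 5.0e-05 without CD. It was 0.22 with DESeq2, 0.052 with detection after thinning, 0.059 without HFD, 0.58 without WD, 0.58 with C1q at 1% and 1.00 without the library block.

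**Figure D4:**
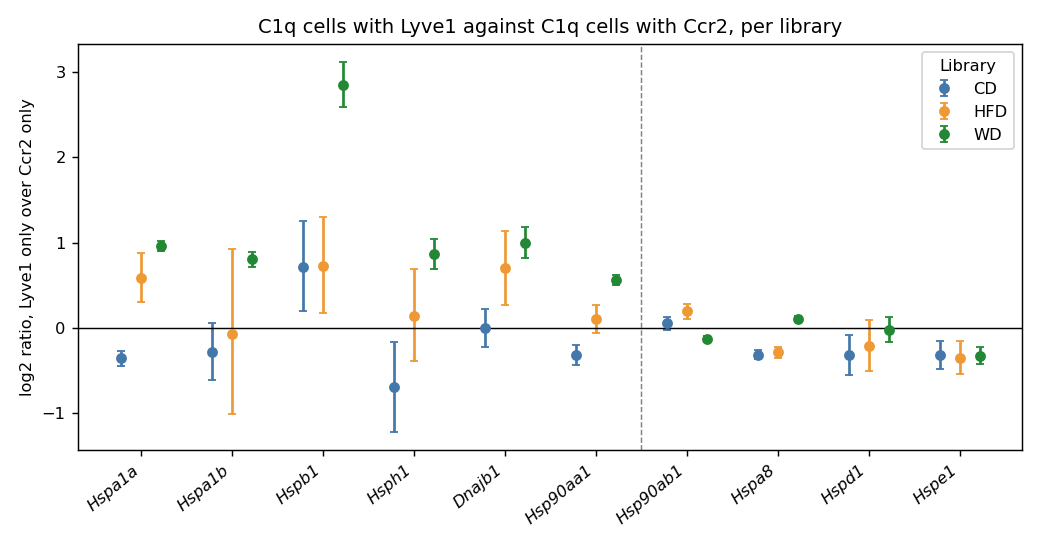
log2 ratio of C1q cells with Lyve1 only over those with Ccr2 only, by library, with 95% counting intervals. Hspb1 lies above 0 and Hspe1 below 0 in all 3 libraries, while Hspa1a, Hsph1 and Hsp90aa1 lie below 0 in CD and above 0 in WD.

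Other pathway genes in this edgeR comparison are given by their counts, beside 11.7% of 10042 genes that were higher and 11.5% that were lower. Hsbp1, which inhibits HSF1, was higher in Lyve1 cells (log2 0.52, 1 of 3 on its list). Also higher were Hspa4l (0.46, 1 of 15), the HSP70 co-chaperone Bag5 (0.59, 1 of 12) and Fkbp5 (0.51, 1 of 8). Of 7 CCT subunits 3 were lower (Cct2, Cct4 and Cct5, -0.38 to -0.44) and 0 higher, and of 14 endoplasmic reticulum chaperones 3 were lower (Creld2, Sdf2l1 and Pdia6). Dnajc2 (1 of 12), Mrpl18 (1 of 15) and the mitochondrial Phb2 (1 of 9) were lower as well. Of 19 immediate early genes 3 were higher (Klf2 at 1.14, Klf4 at 0.88 and Ier3 at 0.77) and 1, Egr2, was lower. Most of these counts are small and lie near the shares of all genes. The median log2 difference was 0.32 over the inducible and -0.25 over the constitutive members, against 0.00 over all genes.

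C1q cells were last compared with the cells below the threshold, a mixed set of 386 (CD), 715 (HFD) and 1058 (WD) cells. Macrophage markers were found there too. The 8 other than the C1q genes summed to 713, 507 and 3227 CPM below the threshold for CD, HFD and WD. Their sums were 2982, 3084 and 4880 CPM above it. Ptprc made up 1533 CPM of the WD sum below the threshold, Mrc1 664 and Csf1r 232. How many cells of this set are macrophages was not tested. No member passed the edgeR test, where 2.87% of 12146 genes were higher and 4.27% lower. At an unadjusted p under 0.05 there were 2 members, and DESeq2 called 1, Hspa1b. A count of 0 does not show equal levels.

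Hspb1 was the member that differed most. It stood at 25.5 CPM in C1q cells and 276 below the threshold in CD, 38.2 and 841 in HFD, and 159 and 61.9 in WD. Cells below the threshold are the higher in CD and HFD and the lower in WD. Over the 3 libraries edgeR gave a log2 difference of -2.28 with an adjusted p of 0.41, and Hspb1 was not called. With 1 library left out, the edgeR value was -3.69 without WD (adjusted p 3.4e-05), -1.27 without CD (0.88) and -0.80 without HFD (0.89). Endothelial markers summed to 12808 CPM below the threshold in CD, 15675 in HFD and 48.0 in WD, with Tie1 at 0 in WD. In a split chosen after these values were seen, cells below the threshold with 3 or more endothelial UMIs had Hspb1 at 528 CPM in CD and 1253 in HFD, and those with fewer 41.1 and 125. In C1q cells with under 3 such UMIs Hspb1 was at 20.5, 26.9 and 162 CPM in CD, HFD and WD, beside 25.5, 38.2 and 159 in all C1q cells. The part of endothelial RNA in these values was not tested. Among these cells HFD against CD was 1.31-fold (1.07 to 1.61), against 1.49-fold in all C1q cells.

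**Figure D5:**
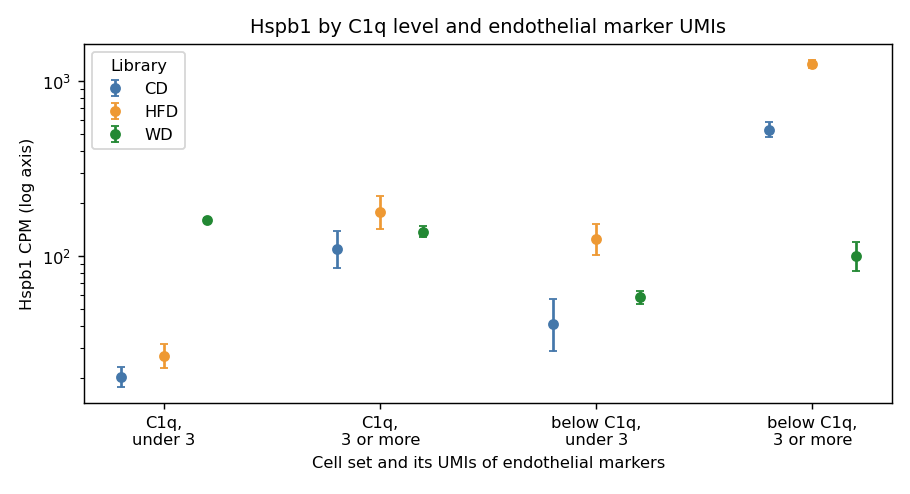
Hspb1 level as CPM on a log axis in C1q cells and in cells below the C1q threshold, each split by whether the cell had 3 or more UMIs of 10 endothelial markers, with 95% Poisson intervals. The highest levels are in cells below the threshold with 3 or more endothelial UMIs in CD (528 CPM) and HFD (1253 CPM). WD C1q cells with under 3 such UMIs stand at 162 CPM.

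The other members below the threshold were led by library. Below it, Hspa1a was at 352, 195 and 403 CPM in CD, HFD and WD, against 614, 152 and 975 in C1q cells. The log2 ratio of C1q cells to cells below was 0.80, 0.14 and 1.03 for Hspa1b, 0.55, -0.22 and 0.64 for Dnajb1 and -0.36, -0.96 and -0.08 for Hspd1, lowest in HFD each time. Near the threshold the sides had overlapping intervals in WD, with Hspa1a at 812 CPM in 200 cells with 0.2% to 0.3% C1q UMIs and 860 in 244 cells with 0.3% to 0.4%. Immediate early genes called higher in C1q cells were Jun, Egr1, Atf3 and Zfp36, 4 of 19, beside 2.87% of all 12146 genes tested.

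Across C1q cells of 1 library, the members varied together weakly in CD and HFD. The median Pearson r over the 15 pairs of inducible members, between log counts per 10000, was 0.08, 0.06 and 0.32 for CD, HFD and WD. Cells share their library and a wide range of depth. With every cell thinned to 1000 UMIs the medians were 0.04, 0.02 and 0.18, and over the 6 constitutive pairs 0.03, 0.04 and 0.06. The highest thinned value in each library was that of Hspa1a with Hspa1b (0.18, 0.16 and 0.39), the pair whose counts are uncertain between them.

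Genes most like the inducible sum were ranked by their lowest r over the 3 libraries, among 5504 genes found in at least 5% of C1q cells of each. Cells were not thinned for this ranking, and the part of depth in these r values was not tested. The first non-member was Dnaja1, an HSP40 and HSF1 target, with r of 0.23, 0.26 and 0.47 for CD, HFD and WD. Then came Klf2, Jund, Klf4, Fos, Egr1, Jun, Hspa5, Junb and Dusp1, 8 of them on the immediate early list. Fos had r of 0.41, 0.14 and 0.26. Of these non-members, all but Dnaja1 had their lowest r in HFD, where the inducible sum rests on fewest UMIs. The part of these low counts in the r values was not tested.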

How the data were processed

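The authors deposited unnormalized UMI counts, 1 matrix per library. Per the file headers, WD was written by software version 7.2.0 and the others by 3.0.1. GRCm38 and Seurat are named per the submitters' processing notes. Aligner, cell filters and the counting of introns were not found in these sources. Barcodes number 737280 in CD and in HFD and 6885 in WD, with 17464149, 16630481 and 79269380 UMIs. The gene lists hold 31053 genes in CD and in HFD and 32285 in WD. Gene lists and members were chosen with earlier results of these data known.

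UMIs were summed over cells and scaled to CPM over 30406 shared genes. CPM carry exact Poisson, ratios exact conditional and shares Clopper-Pearson intervals at 95%, for counting error only. PCR duplicates are removed by UMIs, but cells are not replicates. Libraries were compared by size (1.5-fold, at least 100 UMIs summed), as 1 library per diet allows no test. Sums of 6 cell sets were tested with edgeR 4.0.16 (filterByExpr, TMM, library as block; DESeq2 1.42.0 as an alternative) at an adjusted p of 0.05; the labels do not say that libraries are separate mice, so p-values measure the spread between these libraries. The ratio with its interval and the edgeR test were tried on simulated data, and DESeq2 was not. No doublet caller was run; the sort excluded doublets per the labels, and leaving out the 5% of cells with most UMIs was tried. Named genes are the 10 members, up to 4 genes per list and direction past the threshold, and the 10 non-members most like the inducible sum. Gene positions and introns are from GENCODE vM21 and promoters from RefSeq.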

Additional observations from a re-analysis of the deposited data

Results flagged for a closer look

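Members are given here whose difference between cell sets pointed one way in 1 library and the other way in another, with both counting intervals excluding no difference. With 1 library per diet the change of direction was not tested. Values are log2 ratios in the lowest and the highest library. For Lyve1 cells against Ccr2 cells, Hspa1a had -0.35 in CD and 0.96 in WD. Hsph1 had -0.69 in CD and 0.86 in WD, and Hsp90aa1 -0.31 and 0.57. Hspa8 had -0.31 in CD and 0.11 in WD, and Hsp90ab1 -0.13 in WD and 0.20 in HFD. The inducible sum had -0.29 in CD and 0.87 in WD.

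For C1q cells against the cells below the threshold, the lowest library was HFD and the highest WD in each case. Hspb1 had -4.46 and 1.36, the widest span, and Hspa1a -0.36 and 1.28. Hsph1 had -1.04 and 0.32, and Hsp90aa1 -1.001 and 0.41. Hsp90ab1 had -0.84 and 0.0272, and Hspa8 -0.51 and 0.27. The inducible sum had -1.57 and 0.85, and the constitutive sum -0.63 and 0.13. Cells below the threshold differed between libraries in their markers, with endothelial genes at 15675 CPM in HFD and 48.0 in WD, and the part of that in these values was not tested.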

How the results depend on the processing

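The inducible sum kept its direction in each comparison under every alternative tried. Its log2 ratio of HFD to CD (-0.93) was -0.85 with the C1q threshold at 0.1%, -0.999 in cells thinned to 1000 UMIs, -1.46 without Hsp90aa1 and -0.99 without Hspb1. For WD against CD (1.12) it was 0.88 with the C1q threshold at 1%, 1.07 with cells weighted equally, 1.05 thinned, 1.06 without mitochondrial and ribosomal genes, 0.87 with median of ratios factors, 1.42 over genes with under 1000 intron bases and 1.05 without Hspb1. For WD against HFD (2.04) it was 1.95 at 0.1%, 1.76 at 1%, 1.98 without mitochondrial and ribosomal genes, 1.77 with median of ratios factors, 2.30 over genes with few intron bases and 2.57 without Hsp90aa1. Median of ratios factors took the median of all genes from 0.34 to 0.09 for WD against CD. In HFD against CD the inducible sum rests largely on Hspa1a, which was 614 of 1174 CPM in CD and 152 of 618 in HFD.

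Where 2 members were called between Lyve1 and Ccr2 cells, 3 were called without TMM factors, at a minimum of 2000 UMIs, at a mitochondrial limit of 5% and without the 5% of cells with most UMIs (Dnajb1 added), 4 without a count filter and 0 without the library block, and 1 to 6 when 1 library was left out (6 without CD, 1 without HFD, 4 without WD). Against cells below the threshold, 1 was called with DESeq2, 1 without a filter and 1 at a mitochondrial limit of 5%, and 0 to 2 with 1 library left out. The log2 difference between Lyve1 and Ccr2 cells turned without WD and ranged, with 1 library left out, from -0.10 to 0.75 for Hspa1a, -0.33 to 0.68 for Hspa1b, -0.40 to 0.61 for Hsph1 and -0.24 to 0.28 for Hsp90aa1. It also turned for Hsph1 at 1% C1q (-0.0837), Hsp90aa1 with detection after thinning (-0.14) and Hsp90ab1 without TMM factors (0.0391). Against cells below it turned for Hspa8 without TMM (-0.13) and at 1% (-0.0780), and without the block for Hsph1 (0.0531) and Hsp90aa1 (0.0292). With 1 library left out it ranged from -0.0621 to 0.2736 for Hspa8, -0.53 to 0.17 for Hsph1, -0.42 to 0.23 for Hsp90aa1 and -0.31 to 0.0716 for Hsp90ab1. None of these was called in the main comparison. Between Lyve1 and Ccr2 cells at 1% C1q, edgeR did not call Hspe1 (adjusted p 0.20) but called Hspd1 (0.021). Hspb1 was called under all alternatives but the fit without the library block. The cause of these changes was not tested. Both tests pair the cell sets of a library through the library block.

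Depth limits Hspa1b in HFD, which rests on 70 UMIs, and 3 counts would be 0.455 CPM. The split at under 3 endothelial UMIs and the thinned correlations were chosen after seeing the data.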
